A study of Mus musculus with 6 samples.

Results

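The 34 genes described here carry glucose into the cell, break it down to pyruvate, exchange pyruvate for lactate, or belong to the cellular response to low oxygen. They were chosen by gene symbol from a table of 34745 genes and not by a threshold on their values, but with earlier results of these data known. Each matched 1 Ensembl gene, and all 34 passed the filter on low counts that left 13815 genes for testing. The libraries were made from mRNA of wild-type mouse bone marrow-derived macrophages, which are macrophages matured in culture from marrow cells, here with the growth factor M-CSF at 20 ng/ml. The cells of every library were stimulated with R848 (resiquimod, an agonist of the RNA-sensing receptor TLR7) at 100 ng/ml for 6 h. Before that, the cells of 3 libraries had received the solvent DMSO and those of 3 a KAT8-inhibitor, a compound directed at the histone acetyltransferase KAT8. The labels give no name or dose for the compound, and no unstimulated cells were analysed here, so both groups share the R848 treatment and the comparison is of inhibitor with solvent in stimulated cells. Whether the replicates are biological is not stated either, so the p-values rest on a spread among libraries that could be technical.

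Glycolysis converts glucose to pyruvate in the cytosol. Hexokinase traps glucose as its phosphate, phosphofructokinase commits it to the pathway, and pyruvate kinase closes it. Macrophages activated through Toll-like receptors are known for a high glycolytic rate with release of lactate. The transcription factor HIF-1, whose alpha subunit is encoded by Hif1a, is known to activate many of these genes, and prolyl hydroxylases of the Egln family mark that subunit for degradation when oxygen is present.

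The pathway did not move as a unit. With the inhibitor 10 of the 34 genes rose, 8 fell and 16 did not pass the test (edgeR's quasi-likelihood test, adjusted p under 0.05 over all tested genes). Among all tested genes 24.9% rose and 26.5% fell, together 51.5%, so the share of these genes that changed was near the background. The 3 inhibitor values lay wholly above or below the 3 DMSO values for 22 of the 34, again near the 60.6% of all tested genes for which this held. Their log2 fold changes, given throughout as inhibitor over DMSO, ran from −0.66 for Aldoa to 0.71 for Slc2a1. No gene of the 34 reached a 2-fold difference, against 10.5% of all tested genes. The median was 0.04, and 0.01 over all tested genes. A family here holds only its members among the 34 genes, and shares of a family leave out any others. In 3 of 8 families, the glucose transporters, hexokinases and phosphofructokinases, 1 member rose and another fell. With calls this common among all genes, how often that happens in other families was not tested, and the phosphofructokinase case rests on the fall of Pfkl, whose call was lost with library totals.

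**Figure D1:**
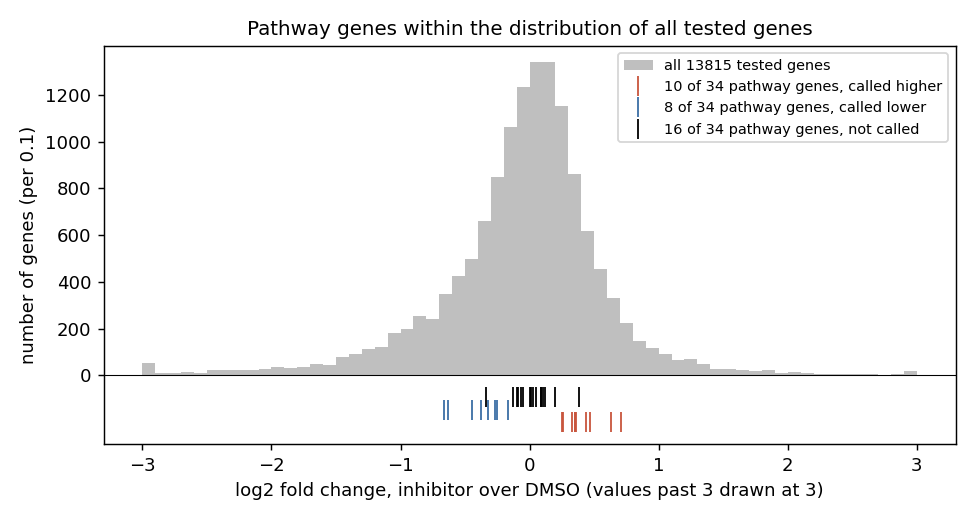
Histogram of the log2 fold change, inhibitor over DMSO, of all 13815 tested genes (grey, y axis in genes per bin of 0.1), with the 34 pathway genes drawn as ticks below it by call. The 10 genes called higher and 8 called lower lie on both sides of 0 and inside the middle of the distribution, between −0.66 and 0.71.

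Library totals were 18441352 to 25089320 counts, lowest in DMSO replicate 1. Levels are CPM, counts scaled to a common library size, with TMM scaling between libraries, as mean ± SD over 3 libraries. With library totals in place of TMM, the median of all tested genes was 0.11 higher on the log2 scale. It turned 3446 higher and 3667 lower genes (48.4% higher) into 4888 and 2842 (63.2% higher), and the 10 higher and 8 lower pathway genes into 15 and 7. All changes below are relative to the TMM scaling. Macrophage markers were all detected (12 of 12 tested, led by Lyz2 at 8596 ± 632 CPM with DMSO), but 9 of the 12 were lower with the inhibitor and their summed level went from between 12320.3 and 14051 CPM to between 7971 and 8062. Markers of stromal cells were abundant, with none at 0 and the collagen gene Col1a2 highest (1701 ± 115 CPM with DMSO, 669 ± 20.2 with the inhibitor). With the inhibitor 13 of 15 were lower and none higher, and their summed level went from between 6139.6 and 7096 CPM to between 2734 and 2908. All 20 genes of the G2 and M phases of the cell cycle were lower as well, from a summed 681 to 754 CPM to a summed 274 to 316, with Mki67 highest (226 ± 14 and 81.8 ± 6.16 CPM). These shifts accompany every difference given below, and their part in it was not tested. In such bulk libraries, fewer cells of a type and less RNA per cell cannot be told apart. Markers of T and NK cells and of erythroid cells summed to under 1 CPM in every library, and those of neutrophils to at most 8.97 CPM, with S100a8 highest (5.55 ± 0.394 and 2.1 ± 0.344 CPM) and Ly6g, Elane, Ngp, S100a9 and Retnlg at 0. The highest markers of the remaining types were Zbtb46 for dendritic cells (16.8 ± 1.07 and 9.64 ± 0.471 CPM), Ighm for B cells (5.71 ± 0.122 and 4.46 ± 0.501 CPM) and Kdr for endothelial cells (3.97 ± 0.423 and 2.57 ± 0.0691 CPM). Cd4 led the T and NK cell list and Alas2 the erythroid list, each under 1 CPM.

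Promoter sequence was looked at because HIF-1 binds a short core, ACGTG or GCGTG, that is shared by many of these genes. RefSeq windows on GRCm38, the build of the deposited table (mm10), were found for 32 of the 34, from 250 bases before to 50 after a transcription start. A core on either strand lay in a window of 30 of these 32 genes (93.8%). The same held for 66.9% of 10385 tested genes and 46.7% of all 27025 genes with such a window. A gene counted if any of its windows held a core, and some genes have several. By window, a core lay in 82.6% of the 46 windows of the pathway genes and in 43.8% of all 32851. The tested genes were matched by symbol only, the pathway genes also by synonym. With a core in 30 of the 32 pathway genes, its presence could not have separated the directions. It was found for 9 of 9 genes that rose, 8 of 8 that fell and 13 of 15 that did not pass. The number and place of the cores were not compared between directions. Some windows hold CACGTG, which is read as a core on both strands and is also the E-box bound by other factors. A match is only a run of letters and not a measured site. Example stretches of 80 bases before the start, outside annotated exons, are printed below. They come from 4 genes that rose (Slc2a1, Pgk1, Bnip3, Ero1l), 3 that fell (Slc2a6, Hif1a, P4ha1) and Ldha, which did not pass. For each gene the stretch with the most cores was taken, so that it holds a core was fixed by the choice. The number of cores ran from 1 in Slc2a1 to 4 in Bnip3. The starts are those of RefSeq, and for Slc2a1, Bnip3, Ero1l, Hif1a and Ldha they lie inside the GENCODE span of the gene. The printed stretches of Ero1l, Hif1a and Ldha lie wholly inside it. The stretches run 5′ to 3′ in the direction of transcription, with cores in capitals (CACGT and CACGC being cores on the opposite strand).
Slc2a1, plus strand, chr4:119108630-119108709: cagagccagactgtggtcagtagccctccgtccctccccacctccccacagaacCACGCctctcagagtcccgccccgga
Pgk1, plus strand, chrX:106186920-106186999: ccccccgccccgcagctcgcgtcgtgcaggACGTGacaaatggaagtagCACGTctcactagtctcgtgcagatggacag
Bnip3, minus strand, chr7:138909572-138909651: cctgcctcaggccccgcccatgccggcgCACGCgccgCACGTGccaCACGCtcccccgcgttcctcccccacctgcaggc
Ero1l, minus strand, chr14:45318623-45318702: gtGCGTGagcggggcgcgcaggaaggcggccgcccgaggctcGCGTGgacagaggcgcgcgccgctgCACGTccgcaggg
Slc2a6, minus strand, chr2:27028044-27028123: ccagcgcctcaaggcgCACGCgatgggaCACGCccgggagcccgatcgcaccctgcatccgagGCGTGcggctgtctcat
Hif1a, plus strand, chr12:73907727-73907806: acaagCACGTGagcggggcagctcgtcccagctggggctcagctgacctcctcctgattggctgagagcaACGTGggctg
P4ha1, plus strand, chr10:59323116-59323195: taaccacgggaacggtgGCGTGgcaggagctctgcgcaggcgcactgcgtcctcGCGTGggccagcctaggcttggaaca
Ldha, plus strand, chr7:46845724-46845803: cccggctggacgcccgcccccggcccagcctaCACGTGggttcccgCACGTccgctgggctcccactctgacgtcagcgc

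Glucose is carried by SLC2A transporters, and here the order of Slc2a1 and Slc2a6 was inverted, with Slc2a3 lowest in both groups. Slc2a1 (GLUT1, the main transporter of activated macrophages) is on chromosome 4 at 119108711 to 119137983 (mm10, plus strand). Its level was 194, 212 and 196 CPM in the DMSO libraries and 317, 342 and 324 CPM in the inhibitor libraries. The groups were far apart, and Slc2a1 rose 1.64-fold, the largest rise of the 34 (log2 fold change 0.71, SE 0.051, adjusted p = 1.34e-05). Slc2a6 (GLUT6, a transporter found mainly on lysosomes and induced in inflammatory macrophages) was at 250.2, 293 and 269 CPM with DMSO and 222, 238 and 212 CPM with the inhibitor. Every inhibitor value was below every DMSO value, and Slc2a6 fell by 0.27 on the log2 scale (SE 0.067, adjusted p = 0.00955). Slc2a3 (GLUT3, a high-affinity transporter best known from neurons) had only 2 to 3.93 CPM in any library. Its groups overlapped and it did not pass (95% interval of the log2 fold change −0.88 to 0.2). Per kilobase of exon, Slc2a6 made up 59.4 ± 0.862% and Slc2a1 40.3 ± 0.92% of the family with DMSO, against 42.6 ± 0.955% and 57.2 ± 0.935% with the inhibitor. The order of Slc2a1 and Slc2a6 turned in the same way when the longest transcript served as length. The family's summed level was 142 ± 9.39 and 164 ± 7.35 CPM per kilobase (SD, n = 3).

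**Figure D2:**
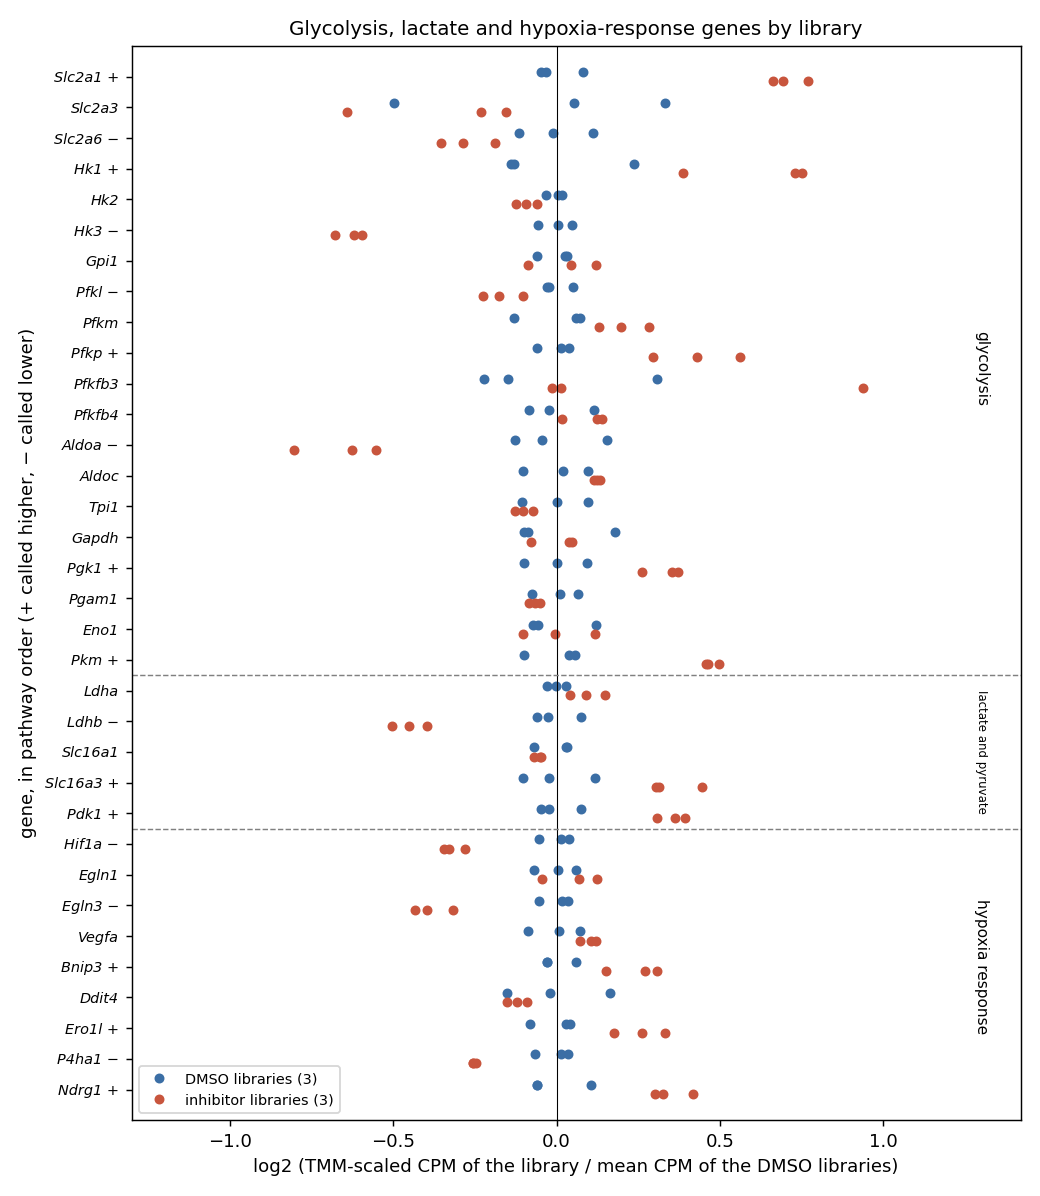
Level of each of the 34 genes in each library (points) as log2 of its TMM-scaled CPM over the mean of the 3 DMSO libraries, in pathway order from glucose uptake at the top to hypoxia-response genes at the bottom. Slc2a1, Hk1, Pfkp and Pkm lie to the right with the inhibitor and Hk3, Aldoa and Ldhb to the left, while Gapdh, Eno1, Gpi1 and Pgam1 overlap around 0.

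Among the hexokinases, Hk3 fell and Hk1 rose. Hk3 (chromosome 13, 55005985 to 55021385, minus strand), the isoenzyme typical of myeloid cells, was the most abundant of the 3 per kilobase. It was at 517, 556 and 539.5 CPM with DMSO and 356, 336 and 349.7 CPM with the inhibitor. With no overlap between groups, Hk3 fell 1.55-fold (log2 fold change −0.63, SE 0.045, adjusted p = 1.28e-05). Hk1 (chromosome 10, 62268855 to 62379908, minus strand), the widely expressed isoenzyme that binds mitochondria, was at 76.1, 98.2 and 75.6 CPM with DMSO and at 138, 109 and 140.1 CPM with the inhibitor. It rose 1.55-fold (log2 fold change 0.63, SE 0.13, adjusted p = 0.00342), although DMSO replicate 2 was high and inhibitor replicate 2 low for their groups. Hk2, the inducible isoenzyme, went from 245 ± 4.15 to 230 ± 4.82 CPM, a difference that did not pass although the groups were separate (adjusted p = 0.0886). Under library totals its log2 fold change had the other sign (0.02). Hk3 thus went from 74.2 ± 0.641% to 63.7 ± 0.436% of the family per kilobase, and Hk1 from 4.95 ± 0.601% to 10.2 ± 1.11%. Together the hexokinases were at 197 ± 6.81 CPM per kilobase with DMSO and 148 ± 3.95 with the inhibitor (SD, n = 3).

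Gpi1, which turns glucose-6-phosphate into fructose-6-phosphate, went from 318 ± 11.3 to 324 ± 23.6 CPM and did not pass (95% interval −0.11 to 0.17). A near-identical copy, Gm1840, held counts equal to 9.33% of those of Gpi1, and how reads shared by such copies were counted is not given in the sources used here.

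Phosphofructokinase 1, the committing step, is built from liver (Pfkl), muscle (Pfkm) and platelet (Pfkp) type subunits. Pfkp was at 110.3, 116 and 118 CPM with DMSO and 141, 155 and 169.8 CPM with the inhibitor. The groups were separate and Pfkp rose 1.35-fold (log2 fold change 0.44, SE 0.069, adjusted p = 0.00101). Of its exon bases 5.6% are shared with Pitrm1 on the other strand, and without strand-aware counting the reads of both genes there cannot be told apart. Pfkl, the main subunit, was at 235, 248 and 236 CPM with DMSO and 212, 223 and 205 CPM with the inhibitor. It fell by 0.17 on the log2 scale (SE 0.047, adjusted p = 0.0165), but this call was lost without inhibitor replicate 1 (adjusted p = 0.0536), without inhibitor replicate 3 (0.0669) and with library totals (0.263). Pfkm was low, at 11.6 ± 0.923 and 13.4 ± 0.72 CPM, and did not pass (adjusted p = 0.101, and 0.0264 with library totals). Pfkl went from 74.9 ± 0.957% to 67.2 ± 2.41% of the family per kilobase and Pfkp from 17.8 ± 0.493% to 24.4 ± 2.02%. The family's sum was 47.9 ± 0.954 and 47.5 ± 1.4 CPM per kilobase, so a new mixture stood at a like total.

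Fructose-2,6-bisphosphate, the activator of phosphofructokinase, is made and removed by the PFKFB enzymes. Pfkfb3, known as the isoenzyme with the strongest kinase activity, was at 49.3, 71.1 and 51.9 CPM with DMSO and 110.2, 58 and 57 CPM with the inhibitor. Inhibitor replicate 1 alone was high, the groups overlapped, and the gene did not pass (log2 fold change 0.38, SE 0.26, adjusted p = 0.247). Pfkfb4 was at 17.9 ± 1.3 and 19.1 ± 0.881 CPM and did not pass either (95% interval −0.09 to 0.27).

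Aldolase A showed the largest fall of the 34. Aldoa (chromosome 7, 126795234 to 126800751, minus strand) encodes the main aldolase outside liver and brain, which splits fructose-1,6-bisphosphate. Its level was 928, 1128 and 982 CPM with DMSO and 691, 656 and 580.1 CPM with the inhibitor. All inhibitor libraries were below all DMSO libraries, and Aldoa fell 1.58-fold (log2 fold change −0.66, SE 0.087, adjusted p = 0.000394). Aldoc, the brain-type enzyme, was at 14.5 ± 1.01 and 15.8 ± 0.131 CPM and did not pass (adjusted p = 0.235, and 0.0292 with library totals). Aldoa made up 98.7 ± 0.0527% of the pair per kilobase with DMSO and 97.8 ± 0.198% with the inhibitor, so the summed aldolase level followed it, from 352 ± 35.8 to 226 ± 19.5 CPM per kilobase.

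The genes for the steps after aldolase were mostly level in RNA. Tpi1, which interconverts the triose phosphates, went from 360.5 ± 24.9 to 336 ± 6.75 CPM (adjusted p = 0.16, and 0.0465 without DMSO replicate 3). Gapdh, the dehydrogenase that yields NADH, was at 141, 171 and 142 CPM with DMSO and 155, 156 and 143 CPM with the inhibitor, means of 151 ± 17 and 151 ± 7.43 CPM. The groups overlapped, with a 95% interval of the log2 fold change from −0.18 to 0.18. Gapdh is often used as a reference gene, but its counts here are uncertain: 78 annotated genes share at least 200 bases with its mRNA at 95% identity or more, 6 of them were measured here, and how reads common to them were counted is unknown. Pgam1, which moves the phosphate of phosphoglycerate, was at 792 ± 39.1 and 756 ± 9.3 CPM and did not pass (adjusted p = 0.251, and 0.0349 without DMSO replicate 1). Its copy Pgam1-ps2 held counts equal to 13.9% of its own. Eno1, the enolase of most tissues, was at 308 ± 23.4 and 309 ± 23.8 CPM (95% interval −0.16 to 0.17), and its copy Eno1b held 47.8% as many counts.

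The genes of both ATP-forming steps rose at the RNA level. Pgk1 (chromosome X, 106187100 to 106203699, plus strand), the phosphoglycerate kinase, was at 471, 539 and 505 CPM with DMSO and 606, 653 and 645 CPM with the inhibitor. The groups were separate and Pgk1 rose 1.26-fold (log2 fold change 0.33, SE 0.057, adjusted p = 0.00175). Pkm (chromosome 9, 59656368 to 59679375, plus strand) encodes the pyruvate kinases PKM1 and PKM2, which are splice forms that gene counts cannot tell apart. Its level was 1418, 1559 and 1577 CPM with DMSO and 2084, 2141 and 2095 CPM with the inhibitor. Pkm rose 1.39-fold (log2 fold change 0.47, SE 0.051, adjusted p = 0.000131), with a wide gap between the groups. Of the exon bases of Pkm 15.3% are shared with Gm49759 on the same strand, which was not analysed here.

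Summed over the 15 genes for enzymes from hexokinase to pyruvate kinase, the level was 5900.2, 6563 and 6172.6 CPM with DMSO and 6342.8, 6455.1 and 6295.5 CPM with the inhibitor. Under TMM scaling these ranges overlap (log2 ratio of the means 0.03). There the falls of Aldoa and Hk3 and the rises of Pkm and Pgk1 offset each other in the total. With library totals the log2 ratio was 0.145 and every inhibitor library lay above every DMSO library, so the offset depends on the scaling. Pkm supplied 23.8% to 25.6% of the sum with DMSO and 32.9% to 33.3% with the inhibitor. Aldoa supplied 15.7% to 17.2% and 9.22% to 10.9%. Per kilobase of exon and with DMSO, Pgam1 (399.8 ± 19.7 CPM per kilobase), Aldoa (348 ± 35.5) and Pkm (304 ± 17.5) were highest, followed by Ldha (228 ± 4.64) and Pgk1 (225 ± 15.1), which did not differ beyond their spread. With the inhibitor Pkm led at 421 ± 6.04, before Pgam1 (381 ± 4.69), Pgk1 (283 ± 11.1), Ldha (244 ± 9.09) and Aldoa (221 ± 19.5). The order depends on the length used: with the longest transcript Aldoa (654) and Pkm (624) led with DMSO, and Pkm (866) led with the inhibitor. Near-identical copies exist for Gapdh, Eno1, Pgam1 and Gpi1, as given above, and also for Ldha (4), Pgk1 (4), Tpi1 (1) and Pkm (1). Ldhb (1) and Bnip3 (4), described below, have such copies too. How reads shared with copies were counted is unknown. The sum, the shares, the order and the calls of Ldhb and Bnip3 all carry that limit.

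**Figure D3:**
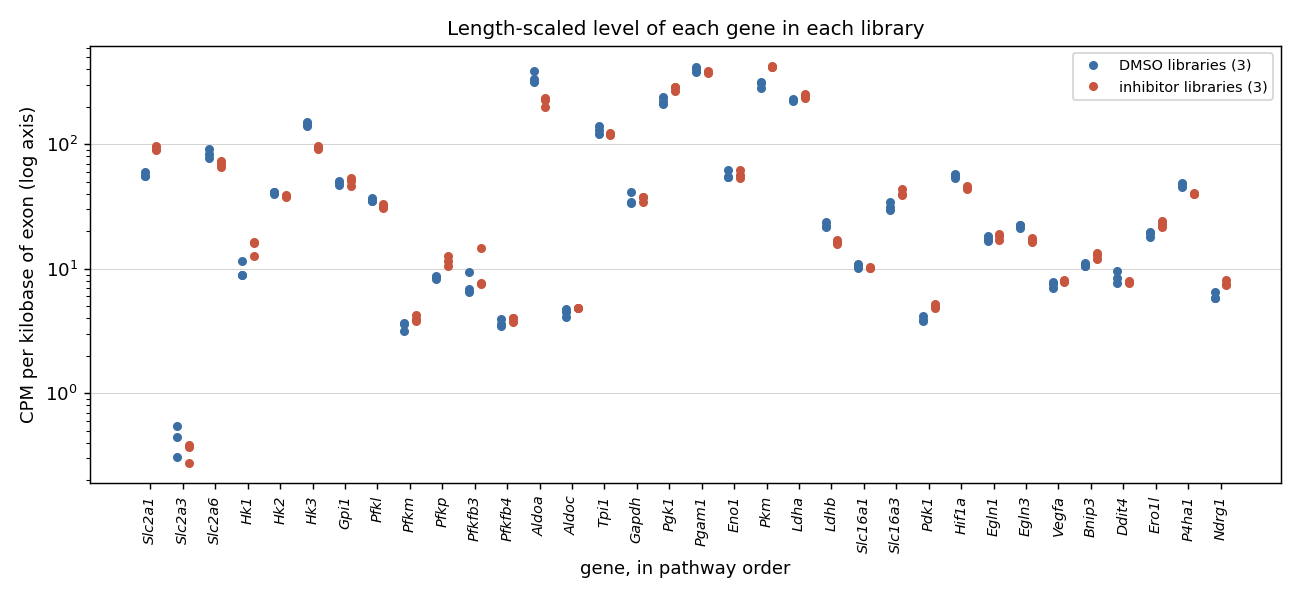
TMM-scaled CPM per kilobase of exon (log axis) of the 34 genes in each of the 3 DMSO and 3 inhibitor libraries (points). Levels span from below 1 for Slc2a3 to about those of Pgam1, Aldoa and Pkm, which passes the other genes in the inhibitor libraries.

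At the exchange of pyruvate and lactate, the lactate dehydrogenase pair shifted toward Ldha. Ldhb (chromosome 6, 142490249 to 142507957, minus strand), the heart-type subunit, which favours the conversion of lactate to pyruvate, was at 34.7, 37.2 and 33.9 CPM with DMSO and 26.8, 25.8 and 24.9 CPM with the inhibitor. Its groups were separate and it fell 1.36-fold (log2 fold change −0.45, SE 0.065, adjusted p = 0.000646). Ldha, the muscle-type subunit, which favours lactate formation, was at 741, 755 and 771 CPM with DMSO and 804, 838 and 778 CPM with the inhibitor. The inhibitor values were all above the DMSO values, but the difference did not pass (log2 fold change 0.09, SE 0.043, adjusted p = 0.0994, and 0.00259 with library totals). Per kilobase, Ldha made up 91.0 ± 0.47% of the pair with DMSO and 93.7 ± 0.227% with the inhibitor.

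Slc16a3 (MCT4, the lactate exporter of glycolytic cells) was at 158, 184 and 167 CPM with DMSO and 211, 231 and 209.7 CPM with the inhibitor. With separate groups it rose 1.28-fold (log2 fold change 0.36, SE 0.067, adjusted p = 0.00257). Slc16a1 (MCT1, which carries lactate both ways) was at 46.9 ± 1.83 and 45.1 ± 0.375 CPM and did not pass (95% interval −0.17 to 0.07). Pdk1, the kinase that shuts pyruvate dehydrogenase and so keeps pyruvate from the mitochondria, was at 29.7, 32.3 and 30.2 CPM with DMSO and 38, 40.3 and 39.5 CPM with the inhibitor. It rose 1.28-fold (log2 fold change 0.35, SE 0.06, adjusted p = 0.00157), again without overlap.

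The ratio of family members within a library does not depend on the scaling between libraries, and 14 such ratios in 8 families were compared. In 12 of the 14 the 3 inhibitor libraries lay wholly on 1 side of the 3 DMSO libraries, each with an exact permutation p = 0.1 (two-sided), the smallest that 3 against 3 allow, and 0.117 adjusted over the 14. No ratio can therefore pass a threshold of 0.05 in this test. Among all pairs of the 13764 tested genes with a count in every library, 58.6% of the ratios were separated in this way. The 14 ratios share members within families and are not independent, so their count is given as a description. Hk1 over Hk3 rose most in value, by a factor of 2.4 (change of the log2 ratio 1.26, SE 0.14). Slc2a1 over Slc2a6 per kilobase was 0.709, 0.662 and 0.667 in the DMSO libraries, below 1 in each, and 1.31, 1.32 and 1.4 in the inhibitor libraries, above 1 in each. Aldoa over Aldoc went from between 75.1 and 81.6 to between 41.1 and 49.4. Pfkl over Pfkp went from between 4.02 and 4.3 to between 2.42 and 3.02, and Ldha over Ldhb from between 9.62 and 10.8 to between 14.2 and 15.4. The 2 ratios whose groups overlapped were Slc2a3 over Slc2a6 (exact permutation p = 1) and Pfkfb3 over Pfkfb4 (exact permutation p = 0.6), where inhibitor replicate 1 stood at 3.64 and the other inhibitor libraries at 1.9 and 2.03.

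**Figure D4:**
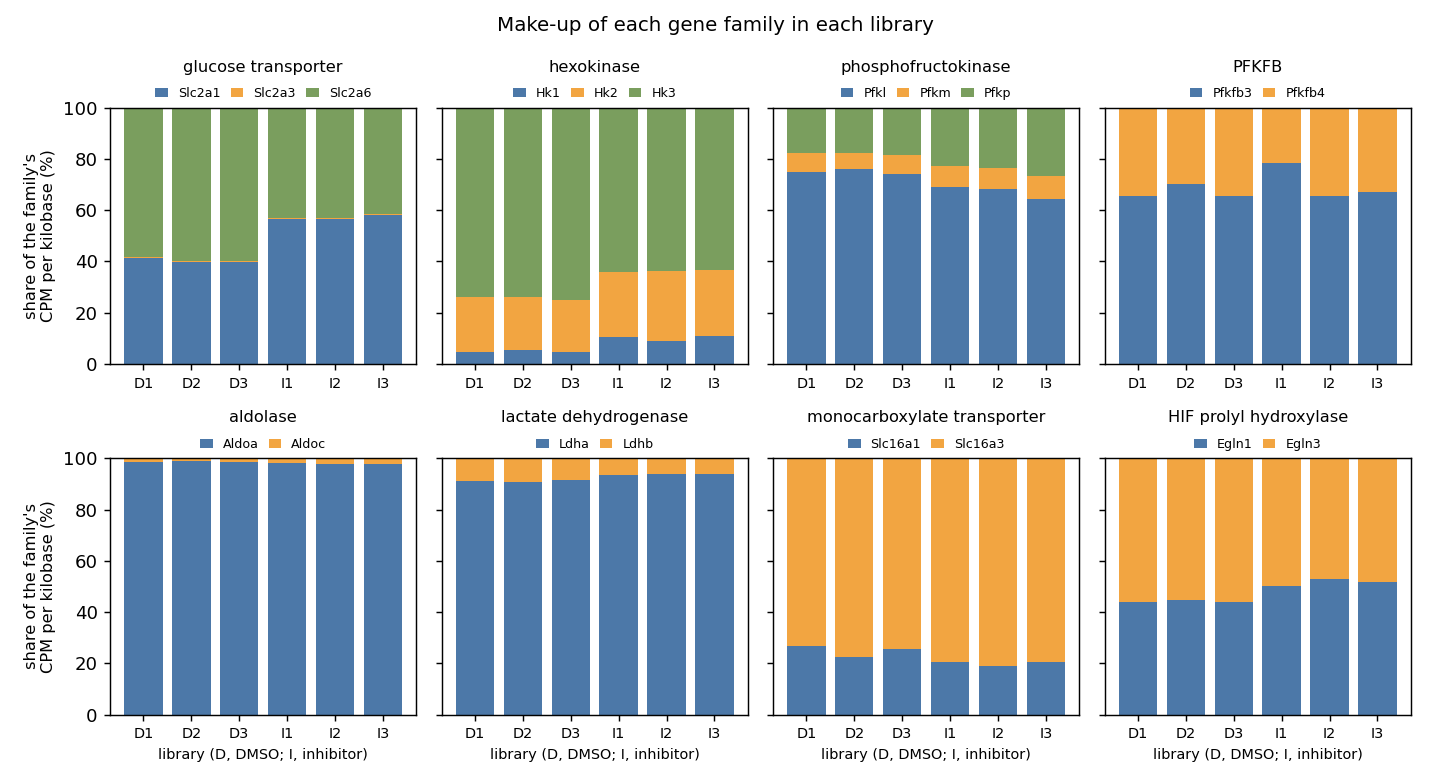
Share of each family's CPM per kilobase held by each member (stacked bars, percent) in the 3 DMSO (D1 to D3) and 3 inhibitor (I1 to I3) libraries, for 8 families. Slc2a1 passes Slc2a6 in the inhibitor libraries, Hk3 and Pfkl lose share to Hk1, Hk2 and Pfkp, and the aldolase and lactate dehydrogenase pairs stay dominated by Aldoa and Ldha.

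**Figure D5:**
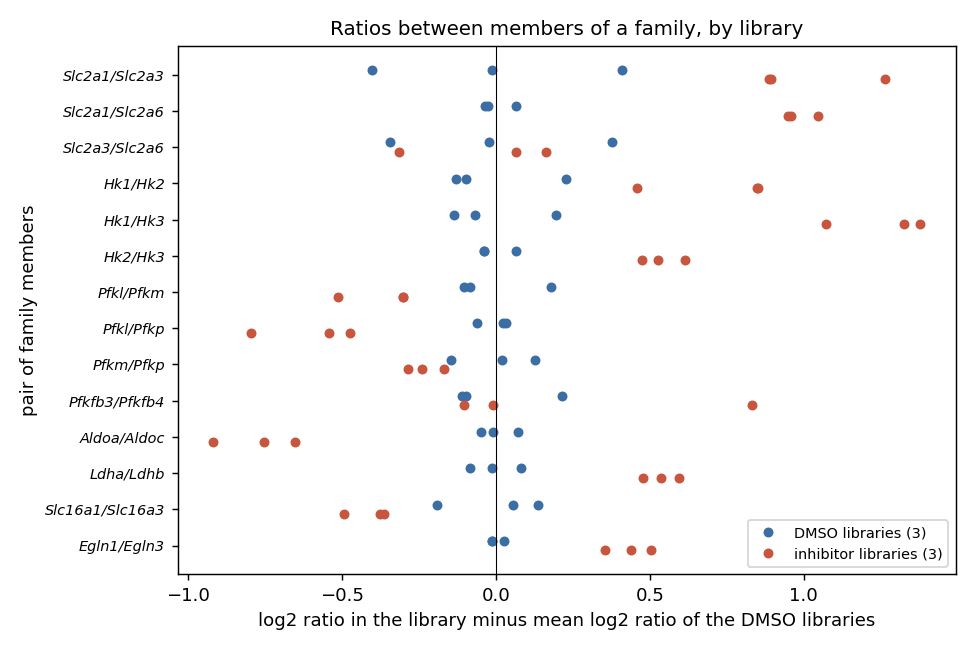
Log2 ratio of each pair of family members in each library minus the mean of the DMSO libraries (points, x axis), for 14 pairs. In 12 pairs the inhibitor and DMSO libraries do not overlap; the exceptions are Slc2a3/Slc2a6 and Pfkfb3/Pfkfb4.

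Hif1a itself was lower with the inhibitor. Hif1a (chromosome 12, 73901375 to 73947530, plus strand) was at 332, 317 and 338 CPM with DMSO and 259, 262 and 271 CPM with the inhibitor. The groups did not overlap and it fell 1.25-fold (log2 fold change −0.32, SE 0.042, adjusted p = 0.000407). HIF-1 alpha is controlled mainly through protein stability, which these data do not measure. Egln3 (PHD3), a prolyl hydroxylase that is itself a HIF target, was at 56.5, 60.2 and 59.4 CPM with DMSO and 44.6, 43.5 and 47.1 CPM with the inhibitor. It fell 1.3-fold (log2 fold change −0.38, SE 0.054, adjusted p = 0.000602), without overlap. Egln1 (PHD2), the main oxygen sensor of the family, was at 62.7 ± 2.82 and 64.9 ± 3.83 CPM and did not pass (95% interval −0.09 to 0.19, adjusted p = 0.515, and 0.0472 with library totals). Per kilobase Egln3 was above Egln1 in the 3 DMSO libraries (55.8 ± 0.362% of the pair) and below it in the 3 inhibitor libraries (48.4 ± 1.32%).

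Known HIF targets outside glycolysis went both ways. Ndrg1, a stress-response gene of the N-myc downstream regulated family, was at 38.3, 42.9 and 38.3 CPM with DMSO and 49.2, 53.3 and 50 CPM with the inhibitor, and rose 1.27-fold (SE of the log2 fold change 0.066, adjusted p = 0.00263). Ero1l, the oxidase that forms disulphide bonds in the endoplasmic reticulum, was at 95.5, 104 and 103 CPM with DMSO and 114, 127 and 121 CPM with the inhibitor, and rose 1.19-fold (adjusted p = 0.00519). Bnip3, a mitophagy receptor, rose 1.19-fold, from 24.3 ± 0.862 to 28.8 ± 1.6 CPM (log2 fold change 0.25, adjusted p = 0.0165). Its call was lost without DMSO replicate 3 (log2 fold change 0.228, adjusted p = 0.0584) and without inhibitor replicate 2 (0.215, adjusted p = 0.0587), at a like size. These 3 had separate groups. An antisense gene on the opposite strand, Gm45507, covers 22.3% of the exon bases of Bnip3 and was not analysed here.

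P4ha1, a subunit of the prolyl hydroxylase that acts on collagen, moved the other way: it was at 202, 199 and 188 CPM with DMSO and 165, 166 and 165 CPM with the inhibitor. All inhibitor libraries were lower and P4ha1 fell 1.19-fold (log2 fold change −0.25, SE 0.042, adjusted p = 0.00144). Collagen genes, which it serves, are among the 13 of 15 stromal markers that were lower. A link between their fall and that of P4ha1 was not tested. Vegfa, the angiogenic growth factor, was at 32 ± 1.76 and 34.3 ± 0.633 CPM and did not pass (adjusted p = 0.216, and 0.0296 with library totals). Ddit4 (REDD1), an inhibitor of mTORC1 signalling, was at 15 ± 1.66 and 13.8 ± 0.305 CPM and did not pass (95% interval −0.34 to 0.09).

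Other genes of these pathways were taken from 4 lists that do not include the 34. Of their 122 genes 104 were tested, 36 rose, 22 fell and 46 did not pass, so 55.8% changed against 51.5% of all tested genes. Their median log2 fold change was 0.13. With library totals 50 were called higher and 18 lower, so the balance of directions in these lists depends on the scaling. Among other glycolysis genes 6 of 17 rose and 3 fell, together 52.9%. The largest changes among those called, at a mean of 5 CPM or more in the higher group, were those of Eno3, the muscle enolase, which went from 7.26 ± 0.608 to 3.21 ± 0.503 CPM, and of Galm, the mutarotase of aldoses, which went from 12 ± 0.783 to 24.4 ± 0.409 CPM (adjusted p = 0.000301 and 1.51e-05). Slc2a9, a urate and sugar transporter, rose from 3.93 ± 0.0772 to 6.02 ± 0.964 CPM.

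Around pyruvate, 11 of 26 tested genes rose and 5 fell, together 61.5%, against 51.5% of all tested genes. Pcx, pyruvate carboxylase, which feeds pyruvate into the citric acid cycle as oxaloacetate, rose from 10.4 ± 0.532 to 25.7 ± 0.313 CPM (log2 fold change 1.3, SE 0.071, adjusted p = 3.34e-06). Gpd2, the mitochondrial glycerol phosphate dehydrogenase that passes cytosolic reducing equivalents to the respiratory chain, fell from 158 ± 2.18 to 84 ± 0.415 CPM (log2 fold change −0.91, SE 0.038, adjusted p = 1.03e-06). Slc16a6, a monocarboxylate transporter, rose from 34.2 ± 6.41 to 60.4 ± 5.56 CPM.

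Of 21 tested regulators of HIF 7 rose and 6 fell, together 61.9%, against 51.5% of all tested genes. The largest changes were falls, of Arnt2, a partner of HIF alpha subunits (11 ± 1.83 to 4.42 ± 0.795 CPM), of Cited2, which competes with HIF for its coactivators (50.1 ± 2.23 to 23.7 ± 0.703 CPM), and of Eloc, elongin C of the VHL ubiquitin ligase (51.4 ± 3.14 to 29.1 ± 0.499 CPM). Of 41 further hypoxia targets 12 rose, 8 fell and 21 did not pass, so 48.8% changed. Hilpda, a lipid droplet protein that inhibits lipolysis, rose from 23.8 ± 2.44 to 81.8 ± 6.63 CPM (log2 fold change 1.78, SE 0.09, adjusted p = 2.35e-06), more than any of the 34. Stc2, a secreted glycoprotein, fell from 5.82 ± 0.787 to 1.57 ± 0.245 CPM, and Lox, the oxidase that crosslinks collagen and elastin, from 260.5 ± 22.4 to 124 ± 6.8 CPM.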

How the data were processed

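RNA-seq counts were analysed for 6 libraries, 3 per group, grouped by the pretreatment in their titles. The authors deposited raw read counts per Ensembl gene. The genome build mm10 and the tools edgeR, HISAT2 and StringTie 1.3.0 are named, without roles, per the submitters' processing notes. Not given in the sources used here: counter, annotation release, strand setting and treatment of multiply mapped reads. No library was a copy of another (chi-square per degree of freedom at least 9.25 within groups).

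The 34 genes and the lists were chosen with earlier results of these data known. Symbols came from GENCODE M21 by identifier, leaving 478 of 34745 genes unnamed. edgeR 4.0.16 in R 4.3.3 tested all genes (quasi-likelihood test, TMM, filterByExpr with a minimum count of 10, Benjamini-Hochberg adjustment); each SE was obtained by dividing the size of the log2 fold change by √F. Level per kilobase uses the union of GENCODE exons. Near-identical copies were found with BLAST 2.17.0. All 34 genes are named; from each other pathway list the text names the 3 called genes with the largest change at a mean of at least 5 CPM in the higher group, and from each cell type list the gene with the highest level. A count of 0 allowed up to 0.166 CPM (3 counts), a limit that covers counting error only. On simulated counts for this comparison (13815 genes), 67, 67 and 66 genes were changed 1.5-fold, 2-fold and 4-fold. The procedure recovered 62.7%, 79.1% and 98.5% of them, and 11 of its 171 calls were false. Far fewer genes changed there than were called in the data, so these rates need not hold for the data. Alternatives were other scalings and filters, DESeq2 1.42.0, a replicate block, a threshold of 0.01, another gene length and leaving out each library.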

Additional observations from a re-analysis of the deposited data

How the results depend on the processing

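Of the 34 genes, 10 higher and 8 lower were also counted with DESeq2 size factors, DESeq2, no filter, a mean of at least 5 CPM and the replicate block. At an adjusted p under 0.01 these were 9 and 7, and leaving out 1 library gave 9 to 10 and 7 to 9. Calls that were lost or gained stand beside the genes. At 0.01 all tested genes gave 2257 higher, and the other pathway genes 20 higher. The sign changed only for genes that did not pass: with library totals the log2 fold changes of Hk2, Tpi1, Pgam1 and Slc16a1 were 0.021, 0.009, 0.042 and 0.055, and that of Gapdh was −0.004 with DESeq2 size factors and with DESeq2 and −0.003 at a mean of at least 5 CPM. Leaving out 1 library moved Gapdh between −0.055 and 0.094, Gpi1 between −0.018 and 0.086, and Eno1 between −0.053 and 0.067. It moved the change of the log2 ratio of Slc2a3 over Slc2a6 between −0.206 and 0.156 and that of Pfkfb3 over Pfkfb4 between −0.057 and 0.412, the lowest being without inhibitor replicate 1. The summed enzyme level had a log2 ratio of 0.145 with library totals and of −0.001 to 0.076 when 1 library was left out, lowest without DMSO replicate 1. Same-numbered libraries did not deviate together (correlations −0.024, −0.009 and 0.024 over genes, not highest for the same number in every case), so the numbers were not taken as pairs. The replicate block gave 3215 higher and 3510 lower genes in place of 3446 and 3667. The causes were not tested. Depth limits Slc2a3, at 40 to 90 counts per library.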

Other observations

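Pfkfb3 was the only 1 of the 34 genes with a library at least 1.5-fold away from both others of its group. In inhibitor replicate 1 it stood at 110.2 CPM, against 58 and 57 CPM in the other inhibitor libraries. Among 10473 genes at a mean of 5 CPM or more, 34 stood at least 1.5-fold above both others in that library and 60 at least 1.5-fold below, against 29 to 50 above and 43 to 57 below in the other libraries.

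Several glycolytic genes have near-identical copies whose counts can be set beside their own. In the DMSO libraries Eno1b held 2462, 3838 and 3301 counts, where Eno1 held 5353, 7762 and 6721. In the inhibitor libraries these were 3794, 3616 and 3565 for Eno1b, and 7965, 8362 and 6907 for Eno1. Pgam1-ps2 held 1842 to 2905 counts per library. The 6 Gapdh copies measured here held 21 to 35 counts per library in all, where Gapdh held 2544 to 4021.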
